A study of Mus musculus with 3 samples.

Results

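Aminoacyl-tRNA synthetases are the enzymes that join each amino acid to its transfer RNA, the step that fixes the genetic code before translation. The set was taken as 36 mouse gene symbols, matched through the accession of each array probe, or the same symbol with a final 1 where the newer name has it (Mars is Mars1 in the table used). It holds 20 genes for enzymes of the cytosol and 16, ending in 2, for enzymes of the mitochondrion. A probe was found for 33 of the 36, among 15720 genes named on the array. The symbols were chosen by family name, but the family was proposed after the ratios of these arrays, and the large negative ratio of the mitochondrial gene Lars2 in particular, were known. Ratios of Lars2 are therefore given as a description with no test, and the counts below are not independent evidence that the family as a whole differs.

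The arrays compared cortex of adult Gtf2i(+/Δex2) mice, which carry 1 allele of Gtf2i named for a deletion of exon 2, with cortex of WT (+/+) mice. All animals were 16 weeks old, and both genotypes shared a mixed background, 98.4% C57BL/6J and 1.6% 129Sv/CD1. Each of 3 two-colour arrays held a pool of RNA from 3 to 5 mutant animals and a pool from wild-type animals. Replicate 2 had the dyes exchanged, with mutant RNA labelled in Cy5, where replicates 1 and 3 carried it in Cy3. Whether the arrays used separate pools is not given, so that the p-values measure only the spread between 3 arrays, which may be technical, and the number of arrays limits the precision. In pooled tissue, fewer cells of a type and less RNA per cell cannot be told apart.

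Ratios are given as the log2 of the mutant channel over the wild-type channel, so that a positive value means higher in the mutant. That direction is likely rather than stated outright. It rests on the sample titles, on the deposited description of the ratio as test over control, and on the Pro25G control spots, whose median log2 ratio was 4.51, -4.54 and 4.58 on replicates 1, 2 and 3 as the dyes were exchanged. Gtf2i, which encodes the transcription factor TFII-I, had signals of 1243, 1273 and 1385 in mutant cortex, against 1578, 1611 and 1662 in wild-type cortex at its brighter probe. Its log2 ratio there was -0.32 ± 0.05 (SD, n = 3; limma adjusted p = 0.00505). Without replicate 1 that ratio was -0.30 and did not pass (limma adjusted p = 0.0559). The dimmer probe read -0.47 ± 0.04 (SD, n = 3; limma adjusted p = 0.0026). Where the probes of Gtf2i lie relative to exon 2 was not given. Markers of cortical neurons were present, with all 7 genes tested. By brightest probe 3 were lower and 0 higher, where 20.0% of all named genes were lower and 16.0% higher. By probe, 5 of 11 were lower and 2, both of Snap25, were higher. The mean ratio over the 11 probes was -0.10, -0.14 and -0.09 on replicates 1, 2 and 3. Their summed signal was 127184, 128476 and 158567 in mutant cortex, against 111660, 140560 and 139080 in wild-type cortex. Replicate 3 stood apart in thalamic markers: 13 probes averaged 0.66 there (summed signal 9707 in mutant cortex, against 4811 in wild-type cortex), where replicates 1 and 2 averaged -0.05 and -0.05. Striatal markers (8 probes) averaged -0.22, -0.31 and 0.15 on replicates 1, 2 and 3, blood markers (7 probes) -0.40, -0.45 and -0.04, and choroid plexus and meningeal markers (9 probes) 0.21, 0.21 and 0.06. The part of these markers in the results below was not tested.

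Synthetases fall into class I and class II, which have unrelated catalytic folds. Most cytosolic and mitochondrial enzymes come from separate nuclear genes, while Gars and Kars each encode both forms. Several cytosolic enzymes are held in a multisynthetase complex with scaffold proteins. Transcription of many cytosolic synthetase genes is raised by ATF4, the factor of the amino acid response. In humans, variants in genes such as GARS1, YARS1 and AARS1 cause inherited neuropathy, and variants in mitochondrial synthetase genes cause disorders of brain and muscle.

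A probe was tested when its spot was marked reliable on at least 2 of the 3 arrays, which left 42 of the family's 47 probes and 31 genes. Cars2, Eprs and Lars had no probe named here, and Farsa and Mars2 had only dim probes that were not tested. A gene is given by its brightest tested probe. Leaving Lars2 aside, 10 of 30 genes were lower in mutant cortex, 1 was higher and 19 did not pass, at a Benjamini-Hochberg adjusted p under 0.05 in limma over all 27530 tested probes. Those lower were Cars, Ears2, Fars2, Farsb, Gars, Hars, Iars2, Mars, Pars2 and Yars, and the higher one was Dars. Among all 12717 named genes given in the same way, 20.0% were lower and 16.0% higher (36.0% in all), against 33.3% and 3.33% of the synthetase genes. Every lower and higher call here rests on the likely direction of the ratio, and with the ratio turned each would change sign, so that 33.3% of the synthetase genes would be higher and 3.33% lower. By probe, 17 of 41 were lower and 2 higher, where 18.9% of all tested probes were lower and 15.0% higher (33.9% in all). The share called in either direction, 36.7% of the genes, is near that of all genes. The median log2 ratio of the 30 genes was -0.07, beside -0.01 for all tested genes, and 21 of 30 were below 0, as were 51.7% of all genes. Differences were small: 5 of the 30 genes reached an absolute log2 ratio of 0.3, and 13 were under 0.1.

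**Figure D1:**
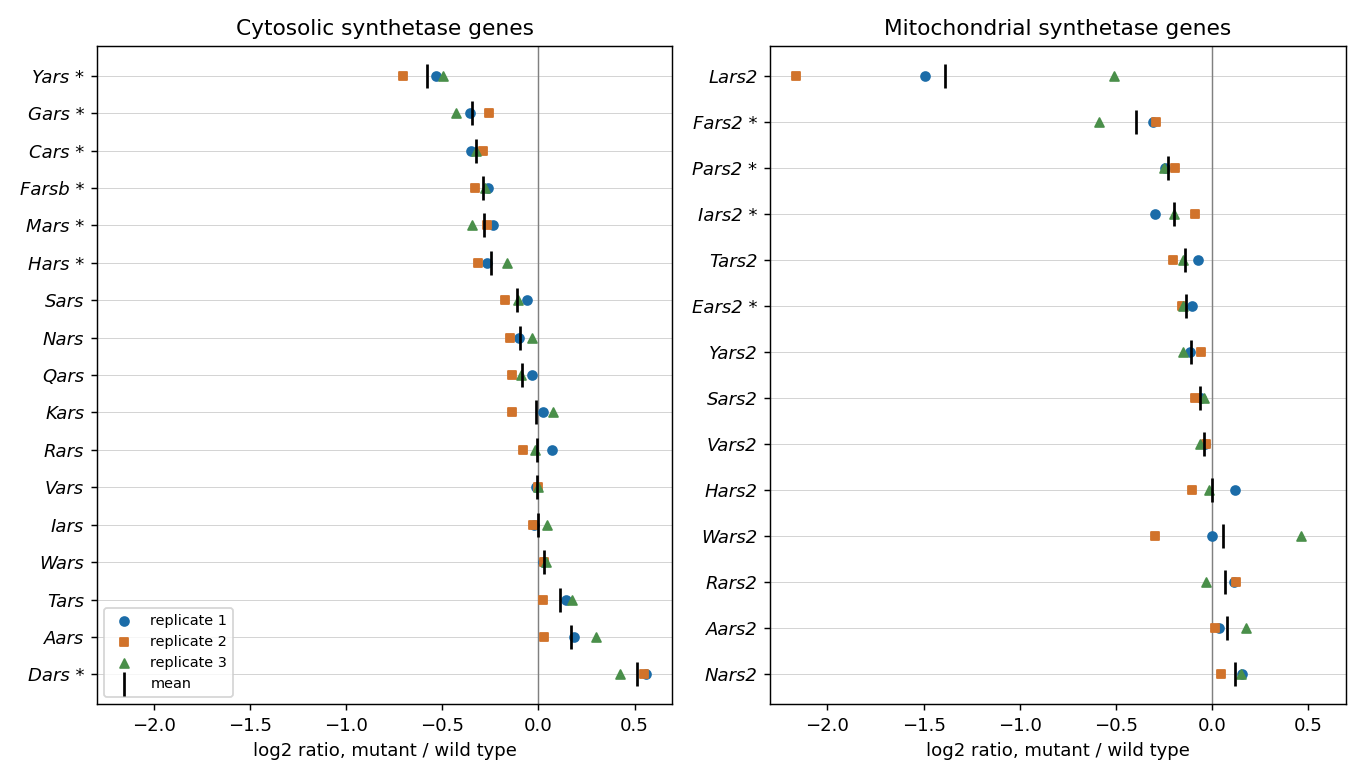
Log2 ratio of mutant over wild type (x axis) on each of the 3 arrays for the brightest tested probe of each gene, with the mean as a vertical bar; cytosolic enzymes on the left, mitochondrial on the right, and an asterisk where limma adjusted p was under 0.05 (Lars2 was not tested). Dars stands to the right of 0 on all arrays at 0.42 to 0.56, Yars to the left at -0.70 to -0.50, and Lars2 spreads from -2.16 to -0.51.

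Among the cytosolic enzymes 6 of 17 genes were lower in the mutant and 1 was higher. The shares were 35.3% lower and 5.88% higher (41.2% in all), beside 20.0% and 16.0% of all named genes (36.0% in all). Yars, the tyrosyl-tRNA synthetase, was the lowest of the cytosolic genes. Its signals were 979, 1021 and 1089 in mutant cortex, against 1417, 1662 and 1536 in wild-type cortex, on replicates 1, 2 and 3. The groups did not overlap, and the signal in mutant cortex was 67% of wild type (log2 ratio -0.58 ± 0.11, SD, n = 3; limma adjusted p = 0.00311). Over all tested probes, those with groups that do not overlap were not counted. The absence of overlap, here and below, is therefore a description only. Yars kept its call in every alternative tried, with limma adjusted p from 4.77e-05 to 0.0267.

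Gars, the glycyl-tRNA synthetase of cytosol and mitochondrion, had signals of 586, 708 and 649 in mutant cortex, against 751, 846 and 874 in wild-type cortex. The groups did not overlap (-0.35 ± 0.09, SD, n = 3; limma adjusted p = 0.00609). Cars, which charges cysteine tRNA, had 474, 483 and 503 in mutant cortex, against 605, 592 and 630 in wild-type cortex, and every mutant value lay below every wild-type value. Its brightest probe read -0.32 ± 0.03, and its other probes -0.32 ± 0.06 and -0.25 ± 0.05 (SD, n = 3), all 3 past the threshold (limma adjusted p = 0.00443 to 0.00872). The 3 probes share their RNA and are not replicates of each other. Spots of the dimmest Cars probe were marked marginal, except the mutant spot of replicate 1, marked absent.

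Farsb, the beta subunit of the phenylalanyl-tRNA synthetase, had signals of 314, 327 and 322 in mutant cortex, against 377, 411 and 390.1 in wild-type cortex. Mars, the methionyl-tRNA synthetase, had 565, 610.2 and 579.6 in mutant cortex, against 666, 736 and 738 in wild-type cortex. Neither gene's groups overlapped, and their log2 ratios were -0.29 ± 0.04 and -0.29 ± 0.06 (SD, n = 3; limma adjusted p = 0.00565 and 0.00712). The other probe of Mars read -0.31 ± 0.02. Hars, the histidyl-tRNA synthetase, had 3048, 3474 and 3391 in mutant cortex, against 3667, 4315 and 3799 in wild-type cortex (-0.25 ± 0.08, SD, n = 3; limma adjusted p = 0.013), with no overlap.

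Dars, the aspartyl-tRNA synthetase and a member of the multisynthetase complex, was the family's only called rise. Its brightest probe gave 967, 1162 and 864 in mutant cortex, against 656, 794 and 644 in wild-type cortex. Its second probe gave 547, 611 and 430.2 in mutant cortex, against 361, 403 and 298 in wild-type cortex. The groups did not overlap at either probe. The log2 ratios were 0.51 ± 0.08 and 0.58 ± 0.04 (SD, n = 3; limma adjusted p = 0.00293 and 0.00217), that is 143% and 149% of wild type. In all alternatives tried Dars kept its call, with adjusted p from 4.16e-05 to 0.0288.

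**Figure D2:**
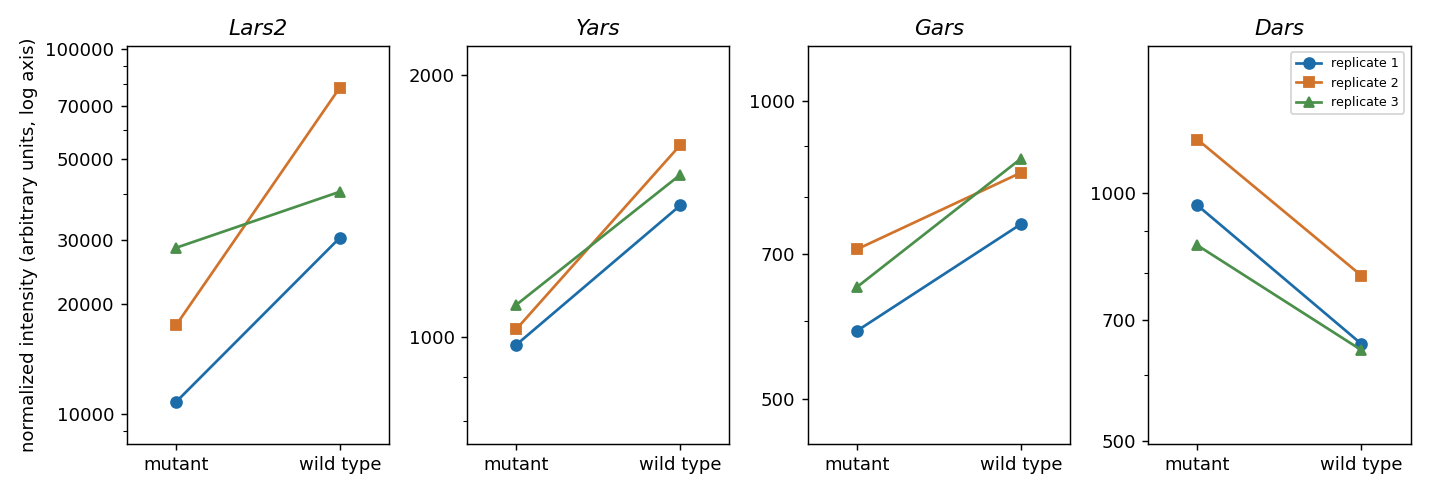
Normalized intensity (log axis, arbitrary units, a separate range for each gene) in mutant and wild-type cortex at the brightest probe of Lars2, Yars, Gars and Dars, with a line joining the channels of each array. The mutant value is the lower on every array for Lars2, Yars and Gars, and the higher on every array for Dars.

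The other 10 cytosolic genes tested did not pass. Sars (-0.11 ± 0.06), Nars (-0.09 ± 0.06) and Qars (-0.09 ± 0.05) were below 0 on all 3 arrays, and Tars (0.11 ± 0.08) and Aars (0.17 ± 0.14) above 0 on all 3 (SD, n = 3). Vars (-0.01 ± 0.01) and Wars (0.03 ± 0.01) had ratios of -0.01 to 0.04 on every array. A second, dimmer probe of Wars was not tested and read -0.26. Kars, Rars and Iars had means of -0.01, -0.01 and 0.00 with both signs among the arrays.

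By structural class, calls were made for 37.5% of the tested cytosolic genes of class I and 44.4% of class II, near the 36.0% of all named genes. Of 8 class I cytosolic genes 3 were lower (Cars, Mars and Yars) and 0 higher, by limma and also at an unadjusted p under 0.05. Of 9 class II genes 3 were lower (Farsb, Gars and Hars) and 1 was higher (Dars). At an unadjusted p under 0.05 in limma, 4 class II genes were lower and 2 higher. Of the multisynthetase complex, 6 of 8 enzymes were tested, with Mars lower, Dars higher and a median log2 ratio of -0.01. Of the 11 tested cytosolic genes outside it, 5 were lower and 0 higher, with a median of -0.11. At an unadjusted p under 0.05 in limma, 6 of them were lower and 1 higher. The difference between these groups was not tested. The share of all genes at an unadjusted p under 0.05 is not given. Unadjusted counts, here and below, are therefore a description only.

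Where a gene had several probes, they did not always read alike. Of 10 such genes, 6 had the same call at all tested probes, and 4 did not: Aars, Iars, Qars and Tars2. Aars, the alanyl-tRNA synthetase, was the 1 gene with probes of opposite sign. Its brighter probe gave 3716, 3971 and 4254 in mutant cortex, against 3267, 3898 and 3462 in wild-type cortex, a ratio of 0.17 ± 0.14 that did not pass (SD, n = 3; limma adjusted p = 0.0813). Its dimmer probe gave 479, 439 and 544 in mutant cortex, against 596, 689 and 594 in wild-type cortex, with no overlap and a ratio of -0.36 ± 0.27 (SD, n = 3; limma adjusted p = 0.0425). No direction can be given for Aars. Without replicate 2 the brighter probe read 0.24 and passed (limma adjusted p = 0.0378).

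Qars, the glutaminyl-tRNA synthetase of the complex, read -0.09 at its brighter probe and -0.34 ± 0.06 at the dimmer, which passed (SD, n = 3; limma adjusted p = 0.00475). At that dimmer probe the signals were 377, 378 and 393 in mutant cortex, against 461, 476 and 520.1 in wild-type cortex. Iars, the isoleucyl-tRNA synthetase, read 0.00 at its brighter probe and -0.18 ± 0.06 at its dimmer (SD, n = 3; limma adjusted p = 0.027). Every spot of that dimmer Iars probe was marked marginal. Tars2, the mitochondrial threonyl-tRNA synthetase, read -0.14 ± 0.06 and -0.22 ± 0.05, and only its dimmer probe passed (SD, n = 3; limma adjusted p = 0.0537 and 0.0137). In all 4 genes, picked because their probes differ in call, the dimmer probe had the lower ratio. Among the 6 genes with 1 call, this also held for Mars, Nars2, Tars and Vars. It did not hold for Dars (0.58 beside 0.51 at the brightest) or Cars (-0.25 at the dimmest, beside -0.32).

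**Figure D3:**
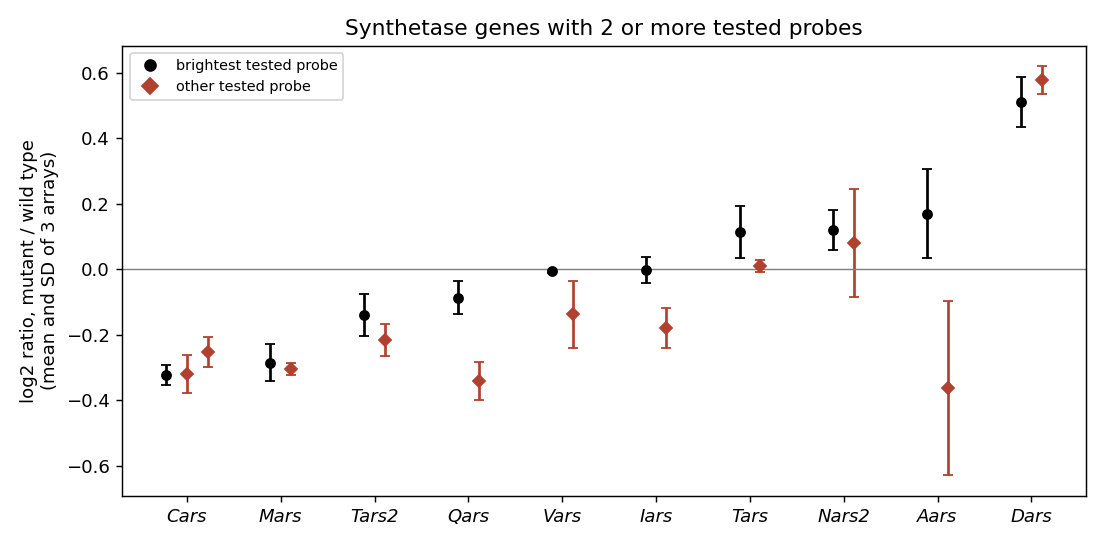
Mean log2 ratio of mutant over wild type with SD over 3 arrays (y axis) for each tested probe of the 10 synthetase genes with several; black circles are the brightest probe and red diamonds the others. The probes of Cars, Mars and Dars lie together, while those of Aars lie at 0.17 and -0.36 and those of Qars at -0.09 and -0.34.

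Among the mitochondrial enzymes, Lars2, the leucyl-tRNA synthetase, had the most negative ratio of the family and also the widest spread. Its 1 probe had signals of 10807, 17526 and 28570.4 in mutant cortex, against 30443, 78464 and 40685 in wild-type cortex, on replicates 1, 2 and 3. Its mean wild-type signal of 49864 was far above that of any other synthetase probe, the next being Hars at 3927. Where the Lars2 probe lies in its transcript was not given, and whether it reads Lars2 RNA alone was not tested. The log2 ratios of Lars2 were -1.49, -2.16 and -0.51, a mean of -1.39 with an SD of 0.83. The mutant values all lay below the wild-type values, and the signal of each genotype also differed widely between arrays. The wild-type spot on replicate 2 was marked saturated in the deposited table, so that its level there is only a lower limit and the mean and SD are not exact, while the other 2 arrays carried no such mark. Without replicate 2 the mean was -1.002, and without replicate 3 it was -1.83. Lars2 was the 1 tested probe of the 42 that was marked saturated on any array.

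The other mitochondrial enzymes moved by less. Of 13 genes besides Lars2, 4 were lower in the mutant, 0 were higher and 9 did not pass, with a median log2 ratio of -0.06 beside -0.09 for the cytosolic genes. The shares were 30.8% lower and 0% higher, beside 20.0% and 16.0% of all named genes (36.0% in all). At an unadjusted p under 0.05 limma gave 6 lower and 1 higher. The count of 0 higher held in every alternative but the array-weighted fit, which called 3. Fars2, the mitochondrial phenylalanyl-tRNA synthetase, had signals of 251, 261 and 217 in mutant cortex, against 309.9, 319.5 and 326 in wild-type cortex (-0.39 ± 0.17, SD, n = 3; limma adjusted p = 0.0118). The groups did not overlap, and the difference was largest on replicate 3, at -0.59, where the mutant spot was marked marginal. Pars2, which charges mitochondrial proline tRNA, had 211, 223 and 224.5 in mutant cortex, against 250.1, 255 and 267 in wild-type cortex (-0.23 ± 0.03, SD, n = 3; limma adjusted p = 0.00991). The mutant spot of Pars2 was marked marginal on every array.

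Iars2, the mitochondrial isoleucyl-tRNA synthetase, had 438, 486 and 488 in mutant cortex, against 539, 516 and 559 in wild-type cortex (-0.19 ± 0.10, SD, n = 3; limma adjusted p = 0.0387). Ears2, the mitochondrial glutamyl-tRNA synthetase, had 154, 149.8 and 159.7 in mutant cortex, against 165, 167 and 177 in wild-type cortex (-0.14 ± 0.03, SD, n = 3; limma adjusted p = 0.043). At Ears2 the deposited table marked each spot as marginal except the mutant spot of replicate 2, marked absent, and with the negative control level subtracted its ratio was -0.28 and that of Pars2 -0.35. The groups of Iars2 and Ears2 did not overlap, yet Ears2 lost its call without any 1 of the arrays (limma adjusted p = 0.0984 to 0.205) and Iars2 without replicate 1 (0.254). Wars2, the mitochondrial tryptophanyl-tRNA synthetase, had the widest spread after Lars2, with 0.00, -0.30 and 0.46 on the 3 arrays. Yars2 (-0.11 ± 0.05), Sars2 (-0.06 ± 0.03) and Vars2 (-0.04 ± 0.02) were below 0 on every array, and Aars2 (0.08 ± 0.09) and Nars2 (0.12 ± 0.06) above 0 on every array (SD, n = 3), with none past the threshold. Rars2 and Hars2 had both signs among the arrays, with means of 0.07 and 0.00.

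Leaving out replicate 1 changed most of the calls. Without it Cars, Farsb, Gars and Mars had limma adjusted p of 0.0514 to 0.0535, and Hars and Pars2 0.106 and 0.103, while their log2 ratios kept their sign. Yars, Dars and Fars2 kept their calls without it (limma adjusted p = 0.0267, 0.0288 and 0.0482). The family then had 3 of 41 probes lower and 2 higher, where 5.37% of all tested probes were lower and 3.38% higher (8.75% in all).

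The enzymes for the same amino acid can be set side by side in cytosol and mitochondrion. Both genes were tested for 11 amino acids. For phenylalanine both were lower in the mutant, Farsb at -0.29 and Fars2 at -0.39. Yars and Hars were lower while Yars2 (-0.11) and Hars2 (0.00) did not pass, and Iars2 was lower while Iars did not pass at its brightest probe. For the other 7 amino acids neither gene passed at its brightest probe. The dimmer probes of Aars (-0.36) and Tars2 (-0.22) did pass (limma adjusted p = 0.0425 and 0.0137). The difference between the enzymes of a pair was not tested.

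**Figure D4:**
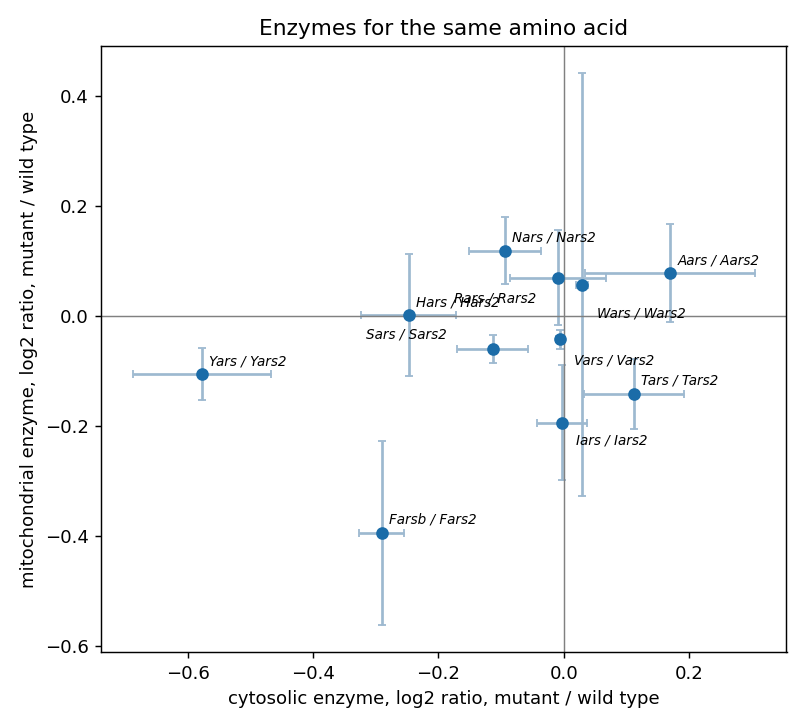
Mean log2 ratio of mutant over wild type for the cytosolic enzyme (x axis) and the mitochondrial enzyme (y axis) of the same amino acid, with SD over 3 arrays, for 11 pairs. Farsb / Fars2 is the pair with both genes well below 0, while Yars lies far to the left with Yars2 at -0.11.

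Some synthetase genes start back to back with another gene. Start sites on opposite strands within 1000 bases were found for 6 members in the RefSeq promoter table. That table holds 13 cytosolic and 14 mitochondrial members, and the rest of the family could not be searched. Of the partners with a tested probe, Ubfd1 beside Ears2 read -0.07 ± 0.04, Lyrm4 beside Fars2 0.17 ± 0.15, Terf2ip beside Kars -0.09 ± 0.11, Orc3 beside Rars2 0.01 ± 0.05 and Mrps12 beside Sars2 -0.02 ± 0.02 (log2 ratio, SD, n = 3). The fit called 0 of these 5 partners (limma adjusted p = 0.0995 to 0.911), where 36.0% of all named genes were called. Lyrm4 alone had an unadjusted p under 0.05 in limma. Ears2 and Fars2 themselves were lower. Whether partners differ from the synthetase genes was not tested. S100pbp, beside Yars, had no probe named here.

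The core of the amino acid response element, through which ATF4 and C/EBP factors act, was looked for as TGATGNAA on both strands in the 250 bases before each start. It was present for 3 of the 13 cytosolic genes that the table holds, Aars, Gars and Tars, and for 0 of 14 mitochondrial genes, against 3.91% of all 27025 genes in the table (3.45% of windows of that length). The stretches that hold it are shown because these 3 genes read differently on the arrays. Capitals mark the element, which in each gene lies on the strand opposite to the gene, as the reverse complement. The sequences are from RefSeq on GRCm38.p6, written along the gene's strand.
Gars, chr6:55037921-55038000, plus strand: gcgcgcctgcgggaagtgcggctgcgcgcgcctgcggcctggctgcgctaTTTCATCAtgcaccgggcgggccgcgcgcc
Aars, chr8:111033694-111033773, plus strand: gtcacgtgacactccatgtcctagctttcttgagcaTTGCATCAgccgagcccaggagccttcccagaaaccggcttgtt
Tars, chr15:11399659-11399738, minus strand: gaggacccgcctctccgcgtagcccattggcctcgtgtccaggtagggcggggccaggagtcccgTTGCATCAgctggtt
Of these genes Gars was lower in the mutant at -0.35, Tars did not pass at 0.11 and 0.01, and Aars had probes at 0.17 and -0.36. The palindromic E-box CACGTG, bound by factors such as USF and MYC, was present for Aars, Farsb and Iars, 3 of the 13 cytosolic genes, and for 0 of the 14 mitochondrial genes, against 6.86% of all genes (6.02% of windows). In Aars it lies upstream of the response element, does not overlap it, and is part of the stretch above. These matches are letters in a window and not shown to be sites of binding.

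Genes around the synthetases were read in lists. Of the 3 scaffold genes of the multisynthetase complex, Aimp1 had signals of 9198, 11059 and 8779 in mutant cortex, against 7999, 9335 and 8201 in wild-type cortex. It was higher by 0.18 ± 0.08, although its groups overlapped in raw signal between arrays (SD, n = 3; limma adjusted p = 0.0311). Aimp2 was lower, at -0.19 ± 0.00 (SD, n = 3; limma adjusted p = 0.0139), and Eef1e1 did not pass at 0.04 ± 0.10. The scaffold thus had 1 member higher and 1 lower of 3, where 36.0% of all named genes were called.

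Of 14 tested genes of mitochondrial tRNA charging, maturation and translation start, 2 were lower, 1 was higher and 11 did not pass, with a median log2 ratio of -0.02. The share called, 21.4%, was below the 36.0% of all named genes. Mto1, which modifies the wobble base of mitochondrial tRNAs, read -0.20 ± 0.08, and Elac2, which trims the 3′ end of tRNAs, -0.19 ± 0.08 (SD, n = 3; limma adjusted p = 0.024 and 0.0316). Gtpbp3, the partner of Mto1, read 0.24 ± 0.05 at its brightest probe but -0.06 and -0.19 at its others, with calls in both directions (limma adjusted p = 0.00981, 0.315 and 0.0171). Of 9 genes of tRNA quality control and export 1 was higher and 0 were lower in limma. At an unadjusted p under 0.05 limma gave 1 higher and 4 lower. The share called, 11.1%, was also below that of all named genes. With each gene's smallest p in place of its brightest probe, 2 were lower.

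Genes of the amino acid response include many targets of ATF4, as do the cytosolic synthetase genes. Of 23 tested 5 were lower (21.7%), 4 were higher (17.4%) and 14 did not pass, shares near the 20.0% and 16.0% of all named genes, with a median log2 ratio of -0.08. Asns, the asparagine synthetase, had signals of 12062, 13459 and 11279 in mutant cortex, against 9274, 10733 and 8561 in wild-type cortex, and all mutant values were higher (0.37 ± 0.04, SD, n = 3; limma adjusted p = 0.00363). Chac1, which degrades glutathione, read 0.33 ± 0.02, and Cebpb, a C/EBP factor, 0.66 ± 0.29 (SD, n = 3; limma adjusted p = 0.00401 and 0.00961). Ddit4, an inhibitor of mTOR signalling, had 2180, 2488 and 2825 in mutant cortex, against 3081, 3169 and 3801 in wild-type cortex (-0.43 ± 0.07, SD, n = 3; limma adjusted p = 0.00364). The other genes called lower were Atf5, Shmt2, Slc3a2 and Slc38a2. Phgdh, the entry enzyme of serine synthesis, was called higher at 0.43 by its brightest probe, while its other probes read 0.27 and -0.25, each past the threshold in its own direction. Atf4 itself read -0.16 ± 0.14 and did not pass (SD, n = 3; limma adjusted p = 0.0976). Without replicate 1, 1 gene of this list was called lower and 3 higher, where 5.37% of all tested probes were lower and 3.38% higher.

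**Figure D5:**
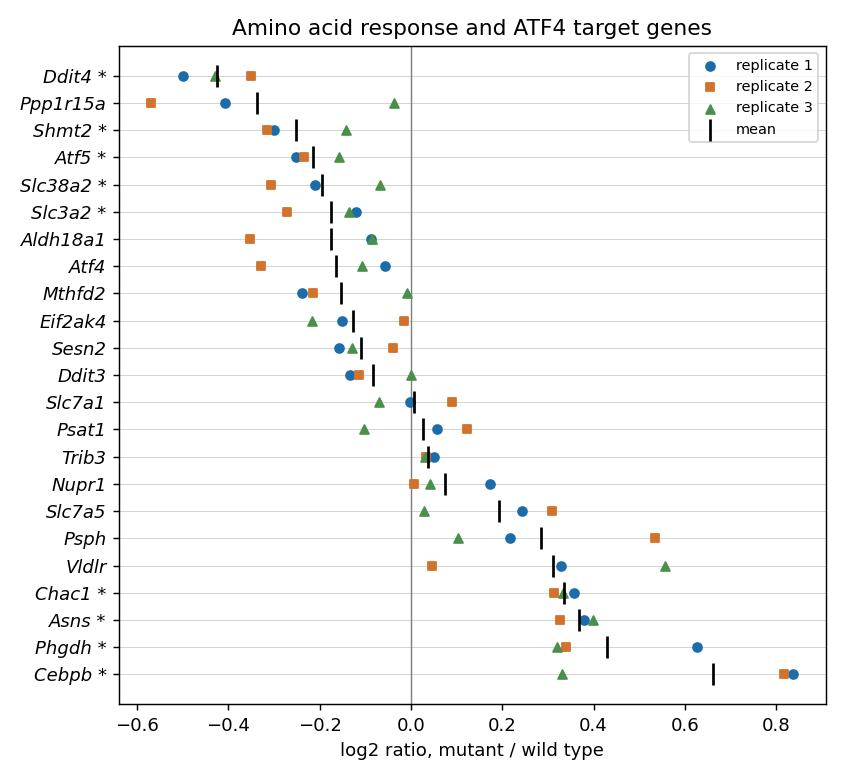
Log2 ratio of mutant over wild type (x axis) on each array for the 23 tested genes of the amino acid response, with the mean as a vertical bar and an asterisk where limma adjusted p was under 0.05. The genes spread on both sides of 0, from Ddit4 at -0.43 to Cebpb at 0.66.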

How the data were processed

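Per the labels' protocols, 500 ng of Trizol-extracted cortex RNA (RIN at least 7) was amplified and hybridised to Agilent 60-mer arrays. The authors deposited a linear intensity per spot and channel, background-subtracted and normalized; the readme names GenePix and gives no normalization method. The authors also deposited a collapsed log2 ratio and a fold score, identical to the value table at all 44290 spots; the value table's medians were -1.01, -1 and 1. The columns used likely hold genotypes, not dyes, since the authors describe them as corrected for the dye swap. Scale is linear; the method of centring stays unknown.

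From these, log2 of Cy5 DO over Cy3 DO (mutant over wild type) was averaged over spots of a probe. Of gene spots 67.8%, 64.4% and 69.7% were reliable on replicates 1 to 3; probes reliable on at least 2 arrays (27530 of 41174) were tested against 0 with limma 3.58.1 (lmFit, eBayes) in R 4.3.3, with Benjamini-Hochberg adjustment. Probe ratios correlated across arrays at Pearson r = 0.822 (replicates 1 and 2), 0.783 (1 and 3) and 0.625 (2 and 3), across probes that are not independent. Accessions were matched without versions to RefSeq on GRCm38.p6, used for names and neighbours; 21437 probes were named. The fit was tested on simulated data. A planned normalization was not needed in the main fit and loess is an alternative. Figures used matplotlib 3.10.9.

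The members and lists were chosen with earlier results of these data known. By the naming rule, every member may be named by its brightest tested probe, other probes are given where they differ in call or sign, and up to 4 called genes of each list are named by smallest p; Atf4, Atf5, Eef1e1, Phgdh, Shmt2, Slc3a2 and Slc38a2 were added after their values were seen, and some single genes of the lists are not reported here. Alternatives were leaving out each array, filters, loess, centring, background, a dye term, array weights, the collapsed ratios, averaging replicates 1 and 2, and other probe rules.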

Additional observations from a re-analysis of the deposited data

How the results depend on the processing

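Under 14 alternatives each, the 30 tested synthetase genes gave 420 values, of which 368 kept direction and side of the threshold, 18 lost a call, 16 gained one and 18 turned sign. The turned values belong to 6 genes not called in the report, and 1 of them was past the threshold, Aars at -0.36 with the probe of smallest p; Aars read -0.0969 by the mean over probes. Hars2 turned to -0.0239 with a dye term, -0.0211 with the negative control level subtracted and -0.00282 with replicates 1 and 2 averaged, Iars to 0.0018 with centring, 0.00712 with loess and 0.00875 with replicates 1 and 2 averaged, and Kars to 0.0187 with array weights and 0.00826 with replicates 1 and 2 averaged. Rars turned to 0.0579 with array weights and Wars2 to -0.0317 with a dye term. Without 1 array Hars2 ran from -0.0578 to 0.0522, Iars from -0.0258 to 0.0107, Kars from -0.057 to 0.0489, Rars from -0.0496 to 0.0262 and Wars2 from -0.147 to 0.233. Of the genes called, Yars, Fars2 and Dars kept their calls in all 14. Array weights were 5.84, 0.373 and 0.459 for replicates 1, 2 and 3, so that this fit leaned mostly on replicate 1. With them 9928 probes were called lower and 8689 higher, and with replicates 1 and 2 averaged as 1 sample 2971 and 2149. Without 1 array the counts ran from 1479 to 5502 lower and from 930 to 4383 higher, the fewest without replicate 1. Of the family's probes, 11 were lower with replicates 1 and 2 averaged, and 7 higher with array weights; without 1 array 3 to 16 were lower and 2 to 3 higher.
Cytosolic genes called higher numbered 3 with array weights, and without 1 array 1 to 6 were lower and 1 to 2 higher. Mitochondrial genes called lower numbered 2 with no filter on dim probes and 2 with replicates 1 and 2 averaged, and 3 were higher with array weights; without 1 array 1 to 3 were lower and 0 higher. The cytosolic median was -0.18 with the probe of smallest p and -0.09 to -0.06 without 1 array. The mitochondrial median was -0.0886 with the negative control level subtracted and -0.0836 to -0.0476 without 1 array. Gtf2i read -0.34 to -0.30 without 1 array, and lost its call at -0.30 without replicate 1.
Of the amino acid response, 8 genes were higher and 11 lower with array weights, 8 lower with a dye term, 3 lower with no filter and 1 lower with replicates 1 and 2 averaged; without 1 array 3 to 6 were higher and 1 to 8 lower. Of mitochondrial tRNA charging, maturation and start, 5 were higher and 4 lower with array weights, 0 higher by the mean over probes and 0 lower with replicates 1 and 2 averaged; without 1 array 0 to 2 were higher and 0 to 2 lower. Of the scaffold, 0 were higher with the negative control level subtracted, and 0 were higher and 0 lower with replicates 1 and 2 averaged; without 1 array 0 to 1 were higher and 0 to 1 lower. Of tRNA quality control and export, 0 were higher with a dye term or with replicates 1 and 2 averaged, and 6 were lower with array weights, 2 by the mean over probes and 2 with the probe of smallest p; without 1 array 0 to 1 were higher and 0 to 1 lower. The cause of these differences was not tested. Fewer arrays were fitted when some were left out or averaged, yet the counts did not always fall. Without replicate 3, 5502 of all tested probes were lower and 4383 higher, beside 5192 and 4141 in the main fit.
No paired analysis was possible because the labels give 1 group of arrays, with no second group to share replicate numbers; the log2 ratio within each array is itself paired by genotype. The dimmest probes, such as those of Farsa and Mars2, lay too near background to give a ratio, and a saturated spot gives only a limit.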

Other observations

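A probe of Pigt, which takes part in joining GPI anchors to proteins, is set beside Lars2. It was chosen after its values were seen, as the tested probe whose log2 ratios lay nearest those of Lars2. The likeness of their ratios therefore follows from the choice and is a description only. It had signals of 13742, 23770 and 24406 in mutant cortex, against 31407, 83188 and 39816 in wild-type cortex, and log2 ratios of -1.19, -1.81 and -0.71, where Lars2 had -1.49, -2.16 and -0.51. The wild-type spot on replicate 2 was marked saturated for both genes, so that both ratios there are limits and not exact. The other probe of Pigt had signals of 189, 173 and 241 in mutant cortex, against 188, 181 and 227 in wild-type cortex, a mean log2 ratio of 0.01. The spots of that other probe were marked marginal in both channels of every array.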
